A study of Mus musculus with 384 samples.

Results

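Calml3, Bnc2, Alcam and Iqsec1 are 4 of the 46609 rows of a table of single-cell RNA levels from mouse back skin. They were chosen from measured values: in cells of the plate cKO_3 they stood far lower in the Sca-1-positive than in the Sca-1-negative sorting gate. The values of that contrast are therefore given below as a description. The weight lies on the other plates and on Cd34 and Krt79 status, although the comparisons by status include cells of cKO_3. All 4 were among the 7060 genes called measured, with a mean of 5 TPM or more across the 5 plates of Sca-1-negative cells, a filter that favours genes high in that gate. TPM is the scaled share of a gene among all transcripts of a cell after correction for transcript length, so levels of different genes can be set side by side.

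The cells were labelled hair follicle stem cells and came from mice at postnatal day 70, each sorted into a well of its own and amplified by Smart-seq2, a full-length protocol without molecular identifiers or strand. The dKO mice were NFIBfl/fl and NFIXfl/fl, with both copies of Nfib and Nfix floxed. The cKO mice were NFIBfl/+ and NFIXfl/fl, which left 1 Nfib allele unfloxed, and wild-type cells were not analysed here. All animals carried Sox9-CreER, a tamoxifen-inducible Cre recombinase under the control of a follicle stem cell gene, and a floxed YFP reporter in the Rosa26 locus. All cells were sorted as DAPI-negative, integrin α6-positive and YFP-positive, and as either positive or negative for Sca-1, the surface protein encoded by Ly6a. Cells of the Sca-1-positive gate, 19 dKO and 22 cKO cells, came from the plates dKO_2 and cKO_3, and the 337 cells of the Sca-1-negative gate from dKO_1 (93 cells), dKO_2 (61), cKO_1 (71), cKO_2 (47) and cKO_3 (65). Recombination cannot be read from these values, because TPM of a gene does not separate transcripts that lack the floxed exon. The labels do not say what the number in a cell's title, as in cKO_3, stands for, and it was read as a plate. They also name no animal, so cells of 1 plate were counted as 1 sample. No test between groups was therefore made, and no p-value is given.

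CALML3 is a calmodulin-like calcium sensor of epithelial cells that binds the unconventional myosin MYO10 as a light chain. BNC2, basonuclin 2, is a zinc finger protein of the nucleus related to basonuclin 1 of basal keratinocytes. ALCAM, also called CD166, is an adhesion molecule of the immunoglobulin superfamily that binds itself on neighbouring cells and CD6 on lymphocytes, and IQSEC1, also called BRAG2, is an exchange factor that loads the small GTPase ARF6 with GTP and acts in the uptake of integrins from the cell surface. In back skin CD34 marks the bulge, the resting niche of follicle stem cells, KRT79 is a keratin of the upper follicle, and Sca-1 is high on cells of the upper follicle and the epidermis.

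All 4 genes lie on the minus strand of GRCm38 in the GENCODE M21 annotation. Calml3 (ENSMUSG00000063130) spans chromosome 13 from 3802896 to 3804316, and exons cover its whole span of 1421 bases. Bnc2 (ENSMUSG00000028487) spans chromosome 4 from 84275095 to 84675275, Alcam (ENSMUSG00000022636) chromosome 16 from 52248996 to 52454074 and Iqsec1 (ENSMUSG00000034312) chromosome 6 from 90656088 to 90988685. The antisense gene Gm44123 shares 574 exon bases with Iqsec1 and averaged 2.63 TPM over all cells; reads of this pair cannot be told apart without strand. No other gene of the annotation shares exon bases with the 4.

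The promoters of these genes are shown because the mice differ in Nfi alleles and the genes stood low together in 1 sorting gate. RefSeq promoter windows of GRCm38.p6, running from 250 bases before to 50 bases after a start, were found for 3 of the 4 genes, with 1 window each for Bnc2 and Alcam and 2 for Iqsec1. Capitals mark TTGGC, the half-site bound by NFI proteins, searched on both strands. The windows of Bnc2 (chr4:84610148-84610447), Alcam (chr16:52453032-52453331) and Iqsec1 (chr6:90810074-90810373) read as follows on the minus strand.
Bnc2: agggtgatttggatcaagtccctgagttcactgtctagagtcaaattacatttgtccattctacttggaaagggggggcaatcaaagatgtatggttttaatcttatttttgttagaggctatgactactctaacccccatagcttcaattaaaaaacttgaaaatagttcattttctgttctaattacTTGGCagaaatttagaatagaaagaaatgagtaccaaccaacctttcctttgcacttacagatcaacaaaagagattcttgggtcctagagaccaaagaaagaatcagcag
Alcam: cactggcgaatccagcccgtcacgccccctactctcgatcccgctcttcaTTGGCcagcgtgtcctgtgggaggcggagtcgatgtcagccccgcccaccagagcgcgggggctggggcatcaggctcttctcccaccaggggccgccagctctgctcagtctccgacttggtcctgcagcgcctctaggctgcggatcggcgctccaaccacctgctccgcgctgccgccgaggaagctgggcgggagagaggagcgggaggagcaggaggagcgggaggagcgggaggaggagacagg
Iqsec1: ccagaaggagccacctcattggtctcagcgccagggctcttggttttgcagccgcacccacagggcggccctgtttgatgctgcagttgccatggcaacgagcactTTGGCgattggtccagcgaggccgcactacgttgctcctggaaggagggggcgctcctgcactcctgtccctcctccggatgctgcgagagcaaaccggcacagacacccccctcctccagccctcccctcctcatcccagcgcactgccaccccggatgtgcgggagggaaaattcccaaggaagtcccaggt
The half-site begins at position -61 from the start in Bnc2, at -200 in Alcam and at -144 in Iqsec1, and the other Iqsec1 window (chr6:90716480-90716779) holds it at -215. Such a short word is common: 46.7% of the 32851 windows in the RefSeq table hold it, so its presence in the 4 windows is a description of the letters. The full palindrome, TTGGC and GCCAA separated by 5 bases, was in 0 of the 4 windows and in 12 of all windows, 0.0365%. All 4 windows lie inside the GENCODE span of their gene, so none marks its outermost annotated start.

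Before the levels, the plates and gates were compared as a whole. The 378 kept cells had plate and gate medians of 4807 to 5234 genes at 1 TPM or more; TPM keeps no read depth, so this number stands in for it. The labels give all cells as male, yet Xist averaged 44.5 to 59.8 TPM over the cells of dKO_1, cKO_1 and cKO_2 and 0.0779 and 0.00345 TPM on dKO_2 and cKO_3, where summed Y-linked RNA averaged 31.8 and 36.9 TPM. At least 3 basal keratinocyte markers at 10 TPM or more were found in all 41 Sca-1-positive and in 330 of 337 Sca-1-negative cells, and at least 3 bulge markers in 20 and 309. On dKO_2 and cKO_3 the Sca-1-positive cells lay in other well rows than the Sca-1-negative cells, so gate and well row cannot be told apart. Of 12 bulge markers, 10 were measured, and 8 were lower in Sca-1-positive cells on each plate by the size rule given with the gate contrast below, which 10.7% of measured genes met as lower and 3.07% as higher on dKO_2, and 5.99% and 1.93% on cKO_3. Of 11 immediate early genes, which respond to stress and tissue dissociation, 10 were higher and 1, Ier3, lower in Sca-1-positive cells of dKO_2, and 3 were higher and 0 lower in those of cKO_3; the part of either list in the results below was not tested. At least 3 of 10 immune markers were found in 9 cells and at least 3 markers of fibroblasts, melanocytes, vessels, nerves or Merkel cells in 0, while at least 3 of 7 sebaceous gland markers were found in 3 Sca-1-positive and 46 Sca-1-negative cells.

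Calml3 was the most abundant of the 4 in Sca-1-negative cells and nearly absent from Sca-1-positive cells. It averaged 3.10 TPM in Sca-1-positive cells of dKO_2, where 3 of 19 cells held 29.3, 15.9 and 13.7 TPM and the other 16 held 0, and 4.26 TPM in those of cKO_3, where a single cell held 93.6 TPM and the other 21 held 0. In Sca-1-negative cells it averaged 94.1 TPM on dKO_1, 169.4 TPM on dKO_2, 184.9 TPM on cKO_1, 97.9 TPM on cKO_2 and 133.3 TPM on cKO_3. The means of the gates did not overlap. Within the Sca-1-negative gate the cells themselves spread widely, with medians of 13.97 to 102.98 TPM, highest cells of 517 to 1101 TPM, and 14.8% to 40.4% of cells at 0. A level of 10 TPM or more made a cell positive. By this measure 15.8% (95% exact binomial interval 3.38% to 39.6%) of Sca-1-positive cells on dKO_2 and 4.55% (0.115% to 22.8%) on cKO_3 held Calml3, against 51.1% to 77.05% of Sca-1-negative cells by plate. These intervals cover counting error only.

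Bnc2 was carried by fewer cells. It averaged 2.41 TPM in Sca-1-positive cells of dKO_2 and 0.857 TPM in those of cKO_3, and single cells, at 39.7 and 14.2 TPM, made up 86.5% and 75.6% of these sums. In Sca-1-negative cells it averaged 24.9 TPM on dKO_1, 30.6 TPM on dKO_2, 28.2 TPM on cKO_1, 36.3 TPM on cKO_2 and 39.8 TPM on cKO_3. The 5 plates were close, although the plate medians lay between 0 and 11.4 TPM because 38.3% to 56.99% of the cells held 0. On cKO_3 a single cell at 659 TPM made up 25.5% of the summed Bnc2. Positive cells were 5.26% (0.133% to 26.03%) and 4.55% (0.115% to 22.8%) in the Sca-1-positive gate and 26.9% to 55.3% in the Sca-1-negative gate.

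Alcam, in contrast, was found at a moderate level in most Sca-1-negative cells. It averaged 1.90 TPM in Sca-1-positive cells of dKO_2, 84.9% of it from 1 cell at 30.7 TPM, and 0.337 TPM in those of cKO_3, where the highest of 22 cells held 2.75 TPM. In Sca-1-negative cells it averaged 35.3 TPM on dKO_1, 45.9 TPM on dKO_2, 24.4 TPM on cKO_1, 41.5 TPM on cKO_2 and 22.9 TPM on cKO_3. The means of the gates did not overlap, and 49.3% to 77.05% of Sca-1-negative cells were positive. Of Sca-1-positive cells, 1 of 19 on dKO_2 was positive and 0 of 22 on cKO_3, which allows a share of up to 13.6%.

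Iqsec1 had the lowest level on 4 of the 5 plates. It averaged 2.10 TPM in Sca-1-positive cells of dKO_2, of which 1 cell at 37.3 TPM made up 93.4%, and 0.407 TPM in those of cKO_3, where the highest cell held 3.59 TPM. In Sca-1-negative cells it averaged 9.93 TPM on dKO_1, 18.1 TPM on dKO_2, 16.5 TPM on cKO_1, 12.9 TPM on cKO_2 and 23.6 TPM on cKO_3. Plate medians lay between 0.14 and 2.54 TPM, so these means rested on the 19.4% to 36.9% of cells that were positive. In the Sca-1-positive gate 1 of 19 cells on dKO_2 was positive and 0 of 22 on cKO_3. In the order of mean levels in Sca-1-negative cells Calml3 came highest on all 5 plates, with plate means that did not overlap those of the other 3 genes. Alcam was above Bnc2 on dKO_1, dKO_2 and cKO_2 and below it on cKO_1 and cKO_3, so this pair did not differ beyond its spread over plates. Iqsec1 lay under both except on cKO_3, where Alcam was lowest.

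**Figure D1:**
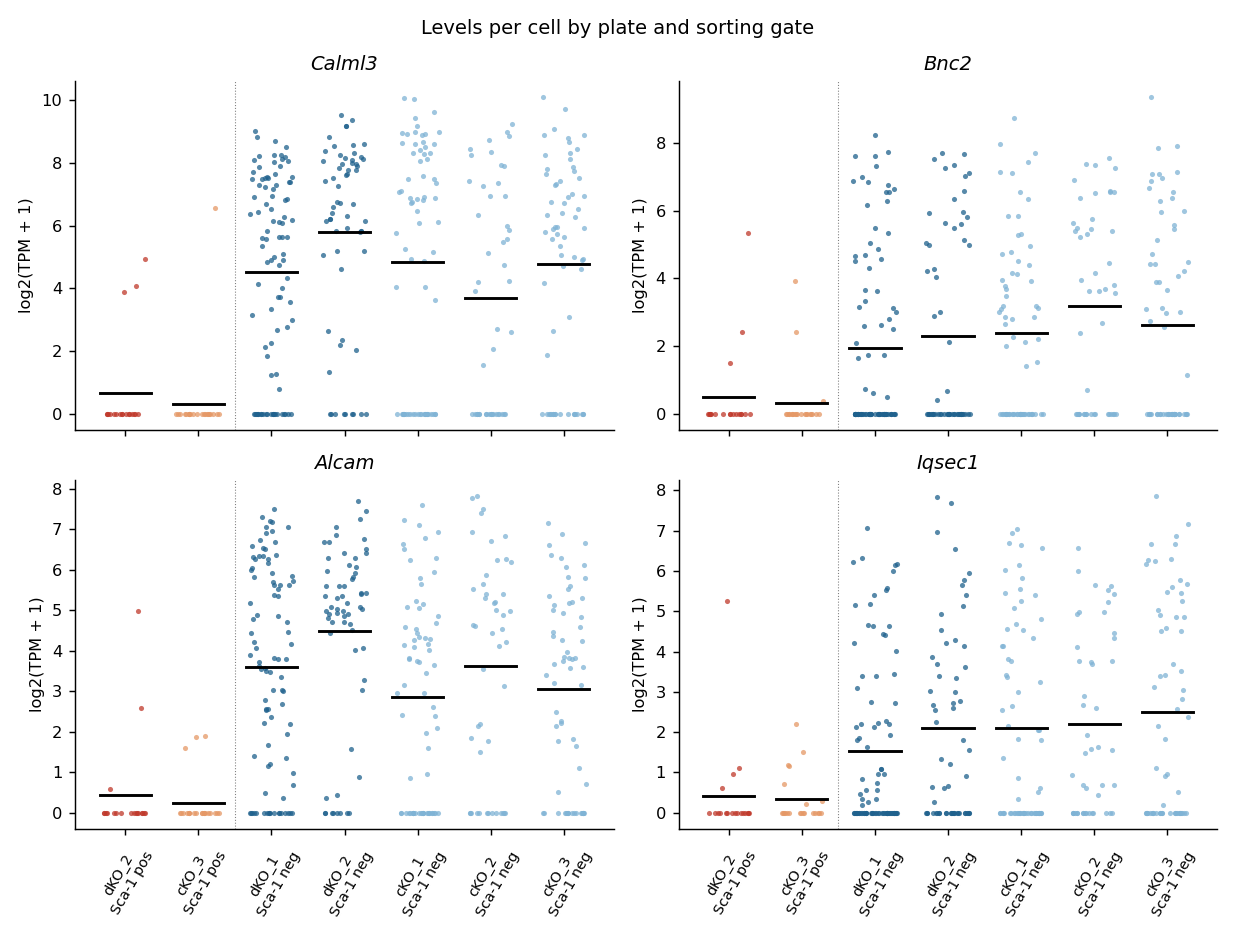
Each point is a cell and gives its level as log2(TPM + 1), with 1 panel for each gene; columns are the plates and sorting gates, Sca-1-positive left of the dotted line, and black bars are means of the log2 values. Most Sca-1-positive cells lie at 0 for each gene, while Sca-1-negative cells of all 5 plates range from 0 up to 1101 TPM for Calml3.

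The gate contrast of cKO_3, which chose the genes, read 25.6-fold lower in Sca-1-positive cells for Calml3, 21.95-fold lower for Bnc2, 17.9-fold lower for Alcam and 17.5-fold lower for Iqsec1. These folds are ratios of mean TPM with a pseudocount of 1 TPM, which understates the difference of low genes. A gene passed the size rule where this ratio was at least 2-fold and mean log2(TPM + 1) differed by at least 1 the same way. On cKO_3, 5.99% of the 7060 measured genes were lower by this rule, with the 4 genes among them by choice. They ranked 23, 29, 40 and 42 from the lowest ratio.

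The same contrast was read on dKO_2, whose values the rule of choice did not use. Earlier results of these data were known at the choice, however, and the filter for measured genes used the Sca-1-negative cells of dKO_2. All 4 genes were lower there in Sca-1-positive cells by the size rule, which 10.7% of measured genes met in that direction. Calml3 was 41.5-fold lower (3.10 against 169.4 TPM), Bnc2 9.27-fold (2.41 against 30.6 TPM), Alcam 16.1-fold (1.90 against 45.9 TPM) and Iqsec1 6.17-fold (2.10 against 18.1 TPM). The log2 ratios were -5.38, -3.21, -4.01 and -2.63, beside a median of -0.39 over all measured genes. From the lowest of 7060 ratios Calml3 ranked 11, Alcam 71 and Iqsec1 282, with Bnc2 between the last 2. Medians of genes detected were 4807 in Sca-1-positive and 5227 in Sca-1-negative cells of dKO_2, and the ribosomal RNA row Rn18s-rs5 took 60.9% and 56.03% of the TPM; their part in the result was not tested. With only cells of 4000 to 6000 genes all 4 genes remained lower by the rule on both plates.

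**Figure D2:**
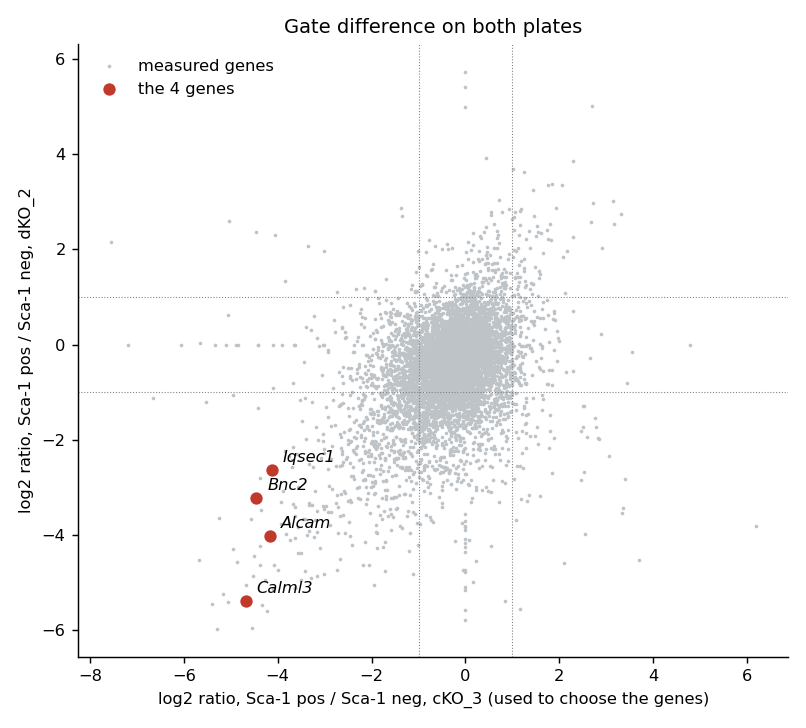
Each grey point is a measured gene, placed by its log2 ratio of mean TPM + 1 between Sca-1-positive and Sca-1-negative cells on cKO_3 (horizontal axis, used to choose the genes) and on dKO_2 (vertical axis); dotted lines mark 2-fold. Calml3, Bnc2, Alcam and Iqsec1 (red) lie at the low left, with log2 ratios of -5.38 to -2.63 on dKO_2.

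In the Sca-1-negative gate, Cd34 and Krt79 RNA divided the cells into kinds. The choice of genes did not use this status, but it did use the Sca-1-negative cells of cKO_3. It set them against a gate without Cd34-positive cells, so Cd34 status is not independent of the choice. Of 337 cells, 91 were Cd34-positive at 10 TPM or more, 63 were Krt79-positive and Cd34-negative, and the rest, 28 to 57 cells per plate, were neither; 2 cells were positive for both and counted with the Cd34-positive ones. Between 5 and 20 TPM, near the threshold, lay 13 cells for Cd34 and 17 for Krt79. The Sca-1-positive gate held 0 Cd34-positive cells of 41, which allows a share of up to 7.32%, and 1 Krt79-positive cell on each plate.

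All 4 genes were higher in Cd34-positive than in Cd34-negative cells on each of the 5 plates. A gene passed the rule for status where all 5 plates went the same way and the ratio averaged over plates on the log2 scale was at least 2-fold, which 4 of 4 genes and 4.46% of measured genes did in this direction; 6.36% of measured genes were lower. The plates include cKO_3, whose high Sca-1-negative values took part in the choice. Bnc2 differed most evenly, averaging 67.03 TPM in Cd34-positive cells and 11.1 TPM in Cd34-negative cells of dKO_1, 73.4 and 15.4 TPM on dKO_2, 67.8 and 9.30 TPM on cKO_1, 70.0 and 23.5 TPM on cKO_2, and 74.5 and 28.4 TPM on cKO_3. The Cd34-positive means of Bnc2 thus lay within 67.03 to 74.5 TPM, and its log2 ratio averaged 2.06 ± 0.60 (SD, n = 5 plates). It ranked 96 from the highest of 7060 ratios.

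Calml3 averaged 216 TPM in Cd34-positive cells and 54.2 TPM in Cd34-negative cells of dKO_1, 188.5 and 162.5 TPM on dKO_2, 408 and 78.1 TPM on cKO_1, 284 and 26.6 TPM on cKO_2, and 240 and 98.5 TPM on cKO_3. Its log2 ratio averaged 1.84 ± 1.18 (SD, n = 5 plates). The plates spread from 1.16-fold on dKO_2, where the Cd34-negative cells were highest and the Cd34-positive cells lowest, to 10.3-fold on cKO_2, where the Cd34-negative cells were lowest. Alcam followed the same order of plates at both ends, with 53.3 and 43.2 TPM on dKO_2 (1.23-fold) and 110.9 and 14.9 TPM on cKO_2 (7.03-fold), and a mean log2 ratio of 1.57 ± 0.90. Iqsec1 had the smallest mean ratio, although the largest of the 4 on cKO_3, and ranged from 1.33-fold on cKO_2 (15.9 and 11.7 TPM) to 3.47-fold on cKO_3 (52.04 and 14.3 TPM), with a mean log2 ratio of 1.13 ± 0.61. Its call rested on cKO_3, the plate that chose the genes, without which its mean log2 ratio was 0.97, under the 2-fold limit, and 3 of the 4 genes passed. The call of Iqsec1 also ended with a pseudocount of 10 TPM (0.76), in cells of 4000 to 6000 genes (0.80) and with positive cells at 1 TPM (0.85). With cells left out that held markers of another cell type or of cycling, 2 of the 4 genes, Bnc2 and Alcam, passed. Median genes detected were not higher with Cd34 except on dKO_2: they were 4963, 5379, 4668, 4767 and 4640 in Cd34-positive cells of dKO_1, dKO_2, cKO_1, cKO_2 and cKO_3, against 5323, 4975.5, 4969, 4992.5 and 5095.5 in cells with neither marker.

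Marker genes of other cells and of stress also moved with Cd34 status. Mitf, a melanocyte factor gene, averaged 57.9 TPM in Cd34-positive and 7.51 TPM in Cd34-negative cells over plates and passed as higher. The 7 melanocyte markers summed to 39.6 to 84.6 TPM in Cd34-positive and 5.73 to 14.8 TPM in Cd34-negative cells by plate; Mlana and Kit were at 0 in all Cd34-positive cells, and Pmel, Tyr and Tyrp1 reached 10 TPM in 0 of 91. Col1a1, a collagen gene of fibroblasts, averaged 28.97 and 1.44 TPM and passed as higher; the 7 fibroblast markers summed to 10.48 to 84.5 TPM and 1.95 to 7.54 TPM, with Dcn, Lum and Pdgfra at 0 in all Cd34-positive cells. In the gate contrast of dKO_2, Mitf (0.468 against 21.6 TPM) and Col1a1 (0.00895 against 23.8 TPM) both passed as lower in Sca-1-positive cells. Of the 11 immediate early genes 4 were lower in Cd34-positive cells and 0 higher, where 6.36% of measured genes were lower, and their median log2 ratio was -2.30. They summed to 49.6 to 1747 TPM in Cd34-positive and 674 to 4120 TPM in Cd34-negative cells. The 10 immune markers summed to at most 4.87 TPM in Cd34-positive and to 8.71 to 67.3 TPM in Cd34-negative cells. Mitf and Col1a1 were named after their values were seen, and the part of these genes in the results was not tested.

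As shares of cells, Calml3 was positive in 88 of 91 Cd34-positive cells (96.7%, 95% exact interval 90.7% to 99.3%), Alcam in 82 (90.1%, 82.1% to 95.4%), Bnc2 in 61 (67.03%, 56.4% to 76.5%) and Iqsec1 in 43 (47.3%, 36.7% to 57.999%). In the cells with neither marker the shares were 50.3%, 46.4%, 28.4% and 24.6% in the same order of genes. The cells of a plate are not independent samples of a condition, and these intervals pool plates; by plate the Cd34-positive shares were 92.3% to 100% for Calml3 and 25% to 75% for Iqsec1.

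With Krt79 status the 4 genes took different directions. Among Cd34-negative cells, Bnc2 and Iqsec1 were lower in Krt79-positive than in Krt79-negative cells on all 5 plates and passed the rule, which 3.27% of measured genes did in that direction; Calml3 and Alcam passed in neither direction, and 1.05% of measured genes were higher. Bnc2 averaged 0.0715 TPM in Krt79-positive and 13.6 TPM in Krt79-negative cells of dKO_1, 8.86 and 18.7 TPM on dKO_2, 4.51 and 10.6 TPM on cKO_1, 7.38 and 26.9 TPM on cKO_2, and 10.3 and 39.9 TPM on cKO_3. Its mean log2 ratio was -1.89 ± 1.12 (SD, n = 5 plates). Iqsec1 averaged 0.498 and 7.63 TPM on dKO_1, 5.25 and 21.3 TPM on dKO_2, 2.25 and 13.2 TPM on cKO_1, 7.24 and 12.7 TPM on cKO_2, and 9.32 and 17.4 TPM on cKO_3 in Krt79-positive and Krt79-negative cells, a mean log2 ratio of -1.61 ± 0.80.

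Calml3 went the other way on 4 of the 5 plates, with 87.8 TPM in Krt79-positive and 46.5 TPM in Krt79-negative cells of dKO_1, 140.1 and 61.7 TPM on cKO_1, 70.7 and 17.2 TPM on cKO_2, and 183.7 and 44.6 TPM on cKO_3. On dKO_2 it read 132.5 and 177.6 TPM, and the single exception kept it from passing; without dKO_2 the mean log2 ratio was 1.52 in place of 1.13, and it passed. Alcam had no common direction, being higher in Krt79-positive cells on cKO_1 and cKO_2 and lower on the other 3 plates, with a mean log2 ratio of 0.12 ± 1.23. Krt79-positive cells numbered 6 to 19 per plate, so these means rest on few cells, and with a pseudocount of 10 TPM neither Bnc2 (-0.94) nor Iqsec1 (-0.72) passed. The difference between the genes in their Krt79 ratios was not tested.

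**Figure D3:**
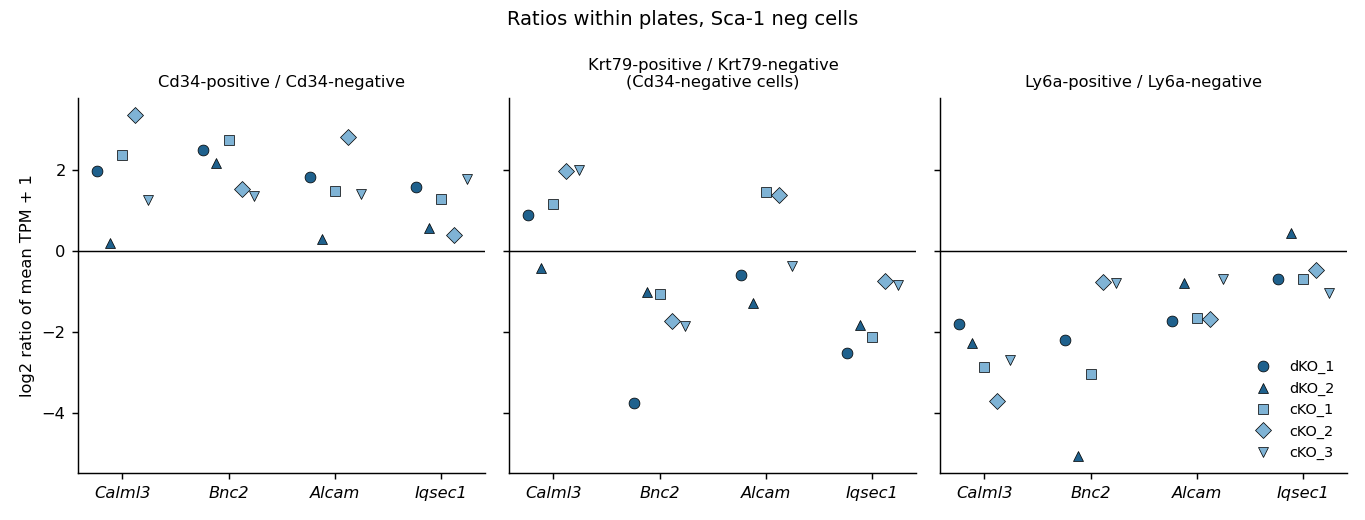
The vertical axis gives the log2 ratio of mean TPM + 1 within a plate of Sca-1-negative cells, for Cd34-positive over Cd34-negative cells, Krt79-positive over Krt79-negative cells (both Cd34-negative) and Ly6a-positive over Ly6a-negative cells; each symbol is a plate, dark for dKO and light for cKO. All Cd34 ratios lie above 0, while Krt79 ratios lie below 0 for Bnc2 and Iqsec1, on both sides for Alcam, and above 0 on 4 of 5 plates for Calml3.

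**Figure D4:**
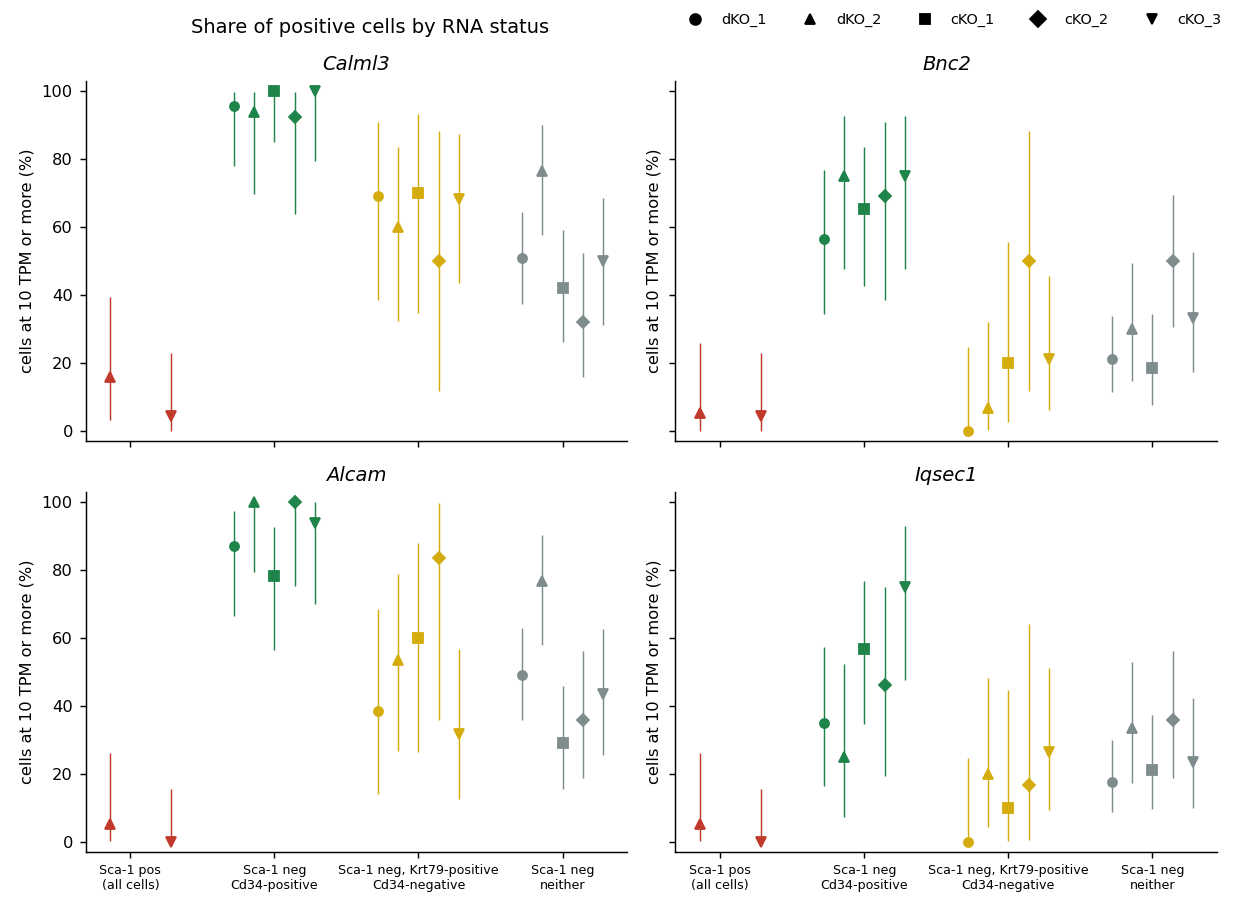
The vertical axis gives the percentage of cells at 10 TPM or more, by gate and RNA status; symbols are plates and bars are exact 95% binomial intervals. For Calml3 and Alcam the Cd34-positive cells lie at 78.3% to 100%, and Sca-1-positive cells lie at 15.8% or lower for each gene.

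Because Sca-1-positive cells held no Cd34-positive cell, the gates were also compared among Cd34-negative cells alone. On dKO_2 Calml3, Alcam and Iqsec1 were still lower in Sca-1-positive cells by the size rule, which 9.9% of measured genes met. Bnc2 was not, since its mean log2(TPM + 1) differed by -0.95, short of 1 in size, although its ratio was 4.82-fold (2.41 against 15.4 TPM). On cKO_3, which chose the genes, 4 of 4 were lower, as were 6.81% of measured genes. Calml3 read 39.9-fold lower on dKO_2 in this comparison and 18.9-fold lower on cKO_3.

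The few Sca-1-positive cells with Krt79 RNA held all of the Calml3 of that gate on cKO_3 and a part of it on dKO_2. The only Krt79-positive cell of cKO_3 was the one with 93.6 TPM, and the other 21 cells of that gate and plate were all at 0. The only Krt79-positive cell of dKO_2 held 15.9 TPM, against a mean of 2.39 TPM over the other 18. The highest cell of that gate and plate, at 29.3 TPM, was Krt79-negative. Both Krt79-positive cells held 0 TPM of Iqsec1, and these are 2 cells.

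Within the Sca-1-negative gate, cells with Ly6a RNA, which encodes Sca-1, were set against cells without, a comparison added after values had been seen. Ly6a averaged 124.6 TPM and 68.4 TPM in Sca-1-positive cells of dKO_2 and cKO_3 and 19.7 to 47.6 TPM in Sca-1-negative cells by plate, so the RNA went with the gate. Each plate held 14 to 33 Ly6a-positive cells in that gate, and only 1 cell of all these was Cd34-positive, so the comparison overlaps with Cd34 status. It also overlaps with the choice of genes, which used the Sca-1 gate and the Sca-1-negative cells of cKO_3, 1 of the 5 plates. Calml3, Bnc2 and Alcam were lower in Ly6a-positive cells on all 5 plates and passed the rule, as did 4.28% of measured genes in that direction. The largest of these was Calml3, with a mean log2 ratio of -2.67 ± 0.72 (SD, n = 5 plates) and 9.36 against 135.4 TPM on cKO_2. Bnc2 averaged -2.38 ± 1.79 and Alcam -1.31 ± 0.53; Alcam did not pass with a pseudocount of 10 TPM (-0.96) or a ratio of at least 3. Iqsec1 did not pass, with -0.49 ± 0.56 and a higher level in Ly6a-positive cells of dKO_2 (22.9 against 16.4 TPM).

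Counted in single cells, at least 2 of the genes were found together more often in Cd34-positive than in other Sca-1-negative cells. Each gene alone was also more frequent there, and whether they occurred together beyond those shares was not tested. At least 2 of the 4 genes reached 10 TPM in 0 of 19 Sca-1-positive cells of dKO_2, which allows a share of up to 15.8%, and in 46 of 61 Sca-1-negative cells of that plate (75.4%, 62.7% to 85.5%). On cKO_3, whose gates chose the genes, the counts were 0 of 22 and 40 of 65 cells, and with all plates together 0 of 41 and 204 of 337. All 4 were found in 35 Sca-1-negative cells, 28 of them Cd34-positive. At least 2 genes were found in 84 of 91 Cd34-positive cells (92.3%, 84.8% to 96.9%), in 30 of 63 Krt79-positive Cd34-negative cells (47.6%, 34.9% to 60.6%) and in 90 of the cells with neither (49.2%, 41.7% to 56.7%). These intervals pool cells of all plates, cKO_3 included, and cover counting error only, since cells of a plate are not independent samples. No Cd34-positive cell lacked all 4, against 43 (23.5%) of the cells with neither. Calml3 was present in 79.2% of the 197 Alcam-positive cells and in 46.4% of Alcam-negative cells, and Alcam in 70.6% of the 221 Calml3-positive cells and in 35.3% of Calml3-negative cells. Bnc2 and Iqsec1 were the pair with the fewest shared cells, 46, and also the genes positive in the fewest cells. Iqsec1 was present in 37.4% of Bnc2-positive and in 24.3% of Bnc2-negative cells. Bnc2 was present in 46.9% of Iqsec1-positive and in 32.2% of Iqsec1-negative cells, so the low count does not mean that the pair avoided each other.

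**Figure D5:**
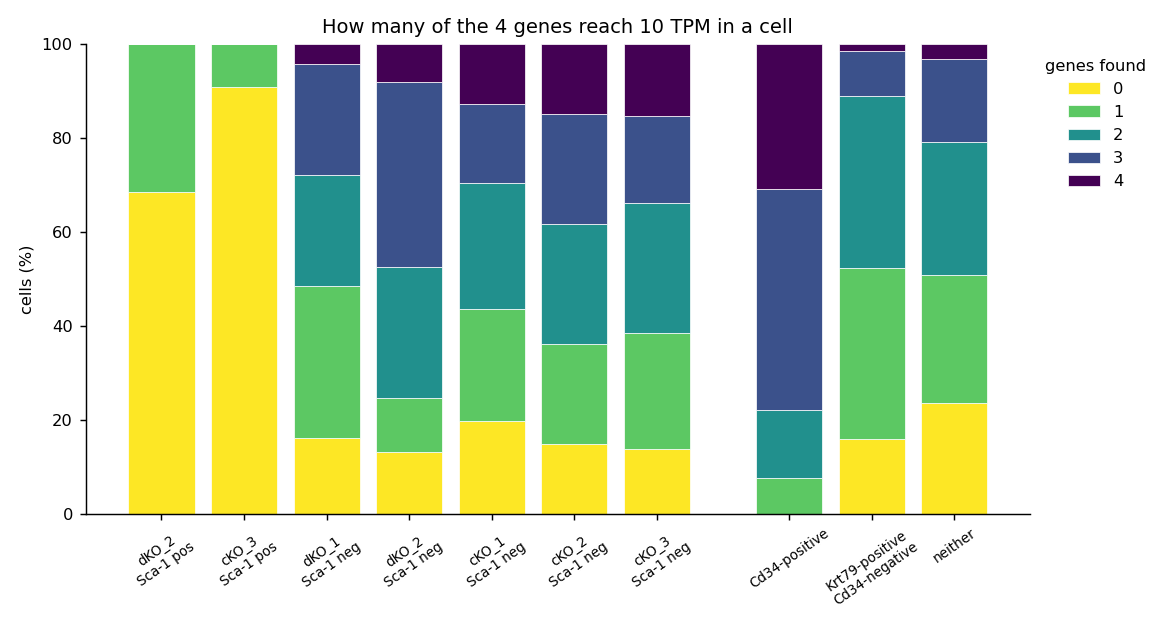
Stacked bars give the percentage of cells in which 0, 1, 2, 3 or 4 of the genes reach 10 TPM, by plate and gate on the left and by Cd34 and Krt79 status of Sca-1-negative cells on the right. Sca-1-positive bars hold only 0 or 1 gene, and in Cd34-positive cells 3 or 4 genes are the most frequent counts.

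Between the genotypes none of the 4 genes passed in Sca-1-negative cells. The rule for genotype asked for at least 2-fold between the means over plates and no overlap of the plates in mean TPM and mean log2(TPM + 1), and 0 of 4 genes and 1.87% of measured genes passed in either direction. Calml3 averaged 131.7 ± 53.2 TPM in dKO and 138.7 ± 43.8 TPM in cKO (SD over n = 2 and n = 3 plates), Bnc2 27.8 ± 4.05 and 34.8 ± 5.92 TPM, Alcam 40.6 ± 7.49 and 29.6 ± 10.3 TPM, and Iqsec1 14.03 ± 5.80 and 17.7 ± 5.44 TPM. The plate values of both genotypes overlapped for Calml3, Alcam and Iqsec1. For Bnc2 they overlapped as well, since dKO_2 at 30.6 TPM stood above cKO_1 at 28.2 TPM. On the plates with Xist the log2 ratios were -0.58, -0.36, 0.10 and -0.52 in the order Calml3, Bnc2, Alcam, Iqsec1, and on the plates with Y-linked RNA they were 0.34, -0.37, 0.97 and -0.36, beside medians of -0.23 and 0.04 over all measured genes. Calml3 thus changed sign between the kinds of plates.

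In Sca-1-positive cells each genotype had 1 plate, and the levels were near the floor. Alcam read 1.90 TPM in dKO and 0.337 TPM in cKO, Iqsec1 2.10 and 0.407 TPM, Bnc2 2.41 and 0.857 TPM, and Calml3 3.10 and 4.26 TPM. By the size rule 0 of 4 genes passed, against 6.06% of measured genes in either direction. The higher dKO values of Bnc2, Alcam and Iqsec1 came mostly from 1 cell each, which made up 86.5%, 84.9% and 93.4% of the dKO sums.

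The genotype comparison was repeated within each kind of Sca-1-negative cell, also after values had been seen. In Cd34-positive cells 0 of 4 genes passed, against 5.95% of measured genes. Calml3 averaged 202 ± 19.1 TPM in dKO and 311 ± 87.1 TPM in cKO, and Bnc2 70.2 ± 4.49 and 70.8 ± 3.43 TPM. The plates of Calml3 did not overlap, with 216 and 188.5 TPM in dKO and 408, 284 and 240 TPM in cKO. Its ratio fell short of 2-fold. In Krt79-positive Cd34-negative cells 0 of 4 passed, against 6.25% of measured genes. In cells with neither marker Alcam alone passed, against 3.68% of measured genes. It averaged 22.6 and 53.99 TPM on dKO_1 and dKO_2 and 10.7, 11.4 and 17.5 TPM on cKO_1, cKO_2 and cKO_3, a 2.77-fold difference. The dKO plates lay above the cKO plates, but the size came from dKO_2, without which the log2 ratio was 0.73 in place of 1.47 and the call was lost. Calml3 also read 177.6 TPM in such cells of dKO_2, against 46.5 TPM on dKO_1, and its plates overlapped those of cKO.

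The genes most like each member across cells were found by Pearson correlation of log2(TPM + 1) over 378 cells after the mean of each plate and gate was subtracted, among 6355 genes. These values are a description, since cells of a plate share library preparation and TPM forces all genes of a cell to a common sum. Nearest to Calml3 were Tbx1 (r = 0.58), a T-box transcription factor, Lhx2 (0.55), a LIM-homeobox factor of the bulge, and Sema3e (0.55), a semaphorin. Nearest to Bnc2 were Il31ra (0.49), a subunit of the interleukin 31 receptor, Tbx1 (0.48) and Fzd2 (0.47), a WNT receptor. Nearest to Alcam were Calml3 (0.51), Tbx1 (0.50) and Timp2 (0.48), an inhibitor of metalloproteinases. Iqsec1 had weaker neighbours, with Nt5e (0.39), the ectonucleotidase CD73, Fam101b (0.36) and Ldlrad3 (0.35). With Cd34 itself the correlation was 0.53 for Calml3, 0.46 for Bnc2, 0.47 for Alcam and 0.27 for Iqsec1. With Nfib, a floxed gene, it was 0.47 for Alcam and 0.23 to 0.34 for the other 3. With Nfix, the other floxed gene, it was -0.09 for Calml3, 0.04 for Bnc2, 0.002 for Alcam and 0.12 for Iqsec1.

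Few measured genes for partners and relatives of the 4 proteins passed as lower in the Sca-1-positive gate, but the lists are short and most measured genes did not pass either. The list of ARF activating proteins had lower medians than all measured genes on both plates. List medians of the log2 ratio on dKO_2 and cKO_3 were -0.35 and -0.04 for calmodulins and Myo10, 0.41 and 0.07 for basonuclin 1 and epidermal factors, 0.53 and 0.22 for adhesion molecules, -0.24 and 0.09 for ARF GTPases, -0.40 and -0.09 for their exchange factors and -0.84 and -0.67 for their activating proteins, beside -0.39 and -0.24 over all measured genes. Of 7 genes for other calmodulins and for myosin X, 5 were measured. On dKO_2 none passed the size rule, and on cKO_3 Myo10 was higher and Calm4 lower. Of all measured genes, 10.7% were lower and 3.07% higher on dKO_2, and 5.99% and 1.93% on cKO_3. Myo10, whose product binds CALML3, averaged 15.4 TPM in Sca-1-positive and 8.49 TPM in Sca-1-negative cells of dKO_2, and 40.3 and 15.5 TPM on cKO_3. Calm4, a calmodulin of differentiating keratinocytes, averaged 51.05 and 28.2 TPM on dKO_2 and 9.41 and 56.2 TPM on cKO_3, opposite directions of which only the difference on cKO_3 passed. In Cd34-positive cells Calm4 averaged 1.36 TPM, against 50.3 TPM in Cd34-negative cells, and passed as lower, whereas Calml3 was higher there.

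Of 10 genes for basonuclin 1 and transcription factors of the epidermis, 7 were measured, and 2 were higher and 0 lower in Sca-1-positive cells of dKO_2 (3.07% and 10.7% of measured genes), with 1 higher and 0 lower on cKO_3 (1.93% and 5.99%). Klf5, a zinc finger factor of proliferating epithelia, averaged 104.7 and 42.9 TPM in Sca-1-positive and Sca-1-negative cells of dKO_2 and 91.2 and 33.02 TPM on cKO_3. Tfap2c, an AP-2 factor, averaged 17.03 and 7.15 TPM on dKO_2 and passed there, and 10.6 and 9.99 TPM on cKO_3. In Cd34-positive cells 4 of the 7, Tfap2c, Klf5, Grhl1 and Zfp750, were lower and 0 higher, where 6.36% of measured genes were lower; Trp63, Tfap2a and Grhl2 did not pass. The list's median log2 ratio was -1.81, beside -0.07 over all measured genes.

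Of 22 genes, those of the immunoglobulin superfamily of adhesion molecules and Cd6, 18 were found in the table and 8 were measured. None was lower in Sca-1-positive cells on either plate. The neural adhesion molecule gene Chl1 alone was higher on dKO_2, at 87.2 against 28.6 TPM. It read 61.5 against 37.95 TPM on cKO_3, which did not pass. Of all measured genes, 10.7% were lower and 3.07% higher on dKO_2, and 5.99% and 1.93% on cKO_3. In Cd34-positive cells 3 of the 8 were higher, as were 4.46% of measured genes: Bcam, which encodes a laminin-binding molecule, at 321 TPM against 136.2 TPM in Cd34-negative cells, Cadm1 at 54.7 against 20.2 TPM and F11r, the gene of a tight junction molecule, at 42.7 against 9.86 TPM. Chl1 was lower, at 7.97 against 38.98 TPM, as were 6.36% of measured genes. Bcam, Cadm1 and F11r were named after their values were seen.

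The ARF GTPases, on which IQSEC1 acts, gave 0 of 5 measured genes past the rule in each of the 3 contrasts (both gates and Cd34). Of all measured genes, 10.7% were lower and 3.07% higher on dKO_2, 5.99% and 1.93% on cKO_3, and 6.36% and 4.46% with Cd34. At these shares 0 of 5 genes says little about the list. Arf1 averaged 33.3 and 37.9 TPM in Sca-1-positive and Sca-1-negative cells of dKO_2 and 44.2 and 36.1 TPM on cKO_3, and Arf4 18.7 and 23.3 TPM and 23.7 and 19.5 TPM. Of 14 other ARF exchange factors 8 were measured, and 1, Gbf1, which acts at the Golgi, was lower in Sca-1-positive cells of dKO_2 (16.7 against 40.2 TPM) but did not pass on cKO_3 (22.5 against 41.3 TPM). Of 16 ARF GTPase-activating genes 8 were measured, and 1, Asap1, was higher on dKO_2 (43.3 against 10.4 TPM; 27.2 against 21.9 TPM on cKO_3). With Cd34, 0 of the 8 exchange factors passed and 1 of the 8 activating genes was lower.

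Of 14 genes for integrins and their linkers 11 were measured. On dKO_2, 2 were lower and 0 higher in Sca-1-positive cells (10.7% and 3.07% of measured genes). On cKO_3, 1 was lower and 1 higher (5.99% and 1.93%). Itgb8, a partner of the integrin αv chain, was lower in Sca-1-positive cells on both plates, with 1.75 against 12.1 TPM on dKO_2 and 0.762 against 8.16 TPM on cKO_3. Itgb5, another partner of αv, was lower on dKO_2 (1.49 against 10.7 TPM) and did not pass on cKO_3 (7.90 against 9.40 TPM). Itga3, a chain of the laminin receptor, was higher on cKO_3 (52.6 against 19.3 TPM) and read 49.998 against 27.6 TPM on dKO_2 without passing. With Cd34 0 of the 11 passed in either direction, beside 6.36% of measured genes lower and 4.46% higher. The list medians of the log2 ratio were -0.12 on dKO_2 and -0.23 on cKO_3.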

How the data were processed

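Levels were measured by single-cell Smart-seq2 RNA sequencing. The authors deposited 1 table of TPM values, each cell summing to the same total; per the submitters' processing notes, Bowtie2 2.2.9, RSEM 1.2.30 and the mm10 (GRCm38) build were used, and the annotation release was not given in the sources used here. A model in RSEM divides reads that fit several genes. All 384 columns were mapped to labelled cells by title, and 378 that reached 1 TPM in 1000 genes or more entered (6 left out). Doublets were not called, because the sort put single cells into wells.

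Means, medians, ratios with a pseudocount of 1 TPM, and exact Clopper-Pearson 95% intervals were computed with Python 3.11.15, numpy 2.4.6, pandas 2.3.3 and scipy 1.17.1. The limit of a share of 0 is 3 divided by the number of cells. The size rules, given with the results, are not tests. Only the rule of the gate contrast was run on simulated data, shuffled cells with decreases planted in Sca-1-positive cells of dKO_2. The outcome of that run is not given here, and the rules for status and genotype were not checked. Measured genes averaged at least 5 TPM over the 5 plates of Sca-1-negative cells, ERCC spike-ins excluded. The genes and lists were chosen with earlier results of these data known. Named beside the 4 were Ly6a, Cd34, Krt79, the 3 most alike genes of each, and of each partner list up to 4 measured genes past the size rule in a gate contrast or, in lists without such a gene, the 2 of highest TPM. Predicted, mitochondrial, ribosomal protein and ERCC rows were left out of the likeness. Gene spans came from GENCODE M21 and promoters from RefSeq.

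Alternatives included pseudocounts of 0.1 and 10, changed filters on cells and genes, ratios of 1.5 and 3, size factors, removal of ERCC and the 5 most abundant rows, trimming of the highest 5% of cells, mean log2 differences, removal of cells with at least 3 markers of another type or of the cell cycle, well rows C and D alone, positive cells at 1 or 50 TPM, and leaving out each plate. Added with the data in view were the Ly6a comparison, the genotype comparisons by status and a gene filter over all 7 plate and gate groups.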

Additional observations from a re-analysis of the deposited data

How the results depend on the processing

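Under 23 alternatives, 763 of 796 recomputed ratios of the 4 genes kept their side of the rule. Of the others, 18 no longer passed, 15 newly passed and 0 passed the opposite way. The sign of ratios that passed in neither run was not counted, and some changed it. The log2 ratio of Calml3 between genotypes in Sca-1-negative cells ran from -0.56 to 0.74. The gate contrast of dKO_2 kept all 4 genes under each alternative run on it. Iqsec1 lost its Cd34 call with a pseudocount of 10 (0.76) and Alcam its Ly6a call with it (-0.96) and with a ratio of at least 3 (-1.31). The Cd34 count fell to 2 of 4 with a ratio of at least 3, and to 2 when cells with markers of other types or cycling were removed. The Krt79 count of 2 became 0 with a pseudocount of 10 and with mean log2 differences alone, and 1 with positive cells at 1 TPM. At least 2 genes per cell were found in 9.76% of Sca-1-positive and 73% of Sca-1-negative cells without ERCC and the 5 most abundant rows, in 9.76% and 74.8% at 1 TPM, and in 31.4% of Sca-1-negative cells at 50 TPM. Between genotypes, the number of genes past the rule in Cd34-positive cells became 1 at a ratio of 1.5, with Calml3 lower in dKO (-0.62). In Krt79-positive cells it became 1 with the highest 5% of cells removed, 1 at 1 TPM and 1 at 50 TPM, and in cells with neither marker 0 at a ratio of 3 and 2 at 50 TPM. Leaving out each plate gave 0 to 2 genes in Krt79-positive cells and 0 to 3 in cells with neither. The cause was not tested for any of these. Among Cd34-negative cells, Bnc2 passed on dKO_2 in 3 of the alternatives (log2 ratio -2.49 without ERCC and abundant rows), and did not on cKO_3 with rows C and D alone (-2.58). The background percentages moved by less than 1.5 times in 309 of 470 recomputations and by more in the others; for the dKO_2 gate contrast the share of genes lower ran from 3.22% to 13.3%. Size factors moved the median of all genes on dKO_2 from -0.39 to -0.17. No paired analysis was possible because the labels name no animal, and no result comes from a test. Gate and status ratios were taken within plates, and plate numbers are not stated to pair animals. Genes detected per cell limit the low levels, since TPM carries no depth and a 0 in a cell can be a missed transcript.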
